A study of Drosophila melanogaster with 4 samples.

Results

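Chromosome arm 3R, the right arm of the third chromosome of Drosophila melanogaster, was described by the H3K9me2 regions deposited on it, from the centromeric end of its sequence to the telomeric end. H3K9me2, dimethylation of histone H3 at lysine 9, was mapped by chromatin immunoprecipitation and sequencing (ChIP-seq) in nuclei from heads of mixed adult flies of the wild-type strain Oregon-R. The series holds 2 ChIP libraries, replicates 1 and 2, and 2 input libraries of the same strain and stage. The members were the rows of the region lists placed on sequence 3R of FlyBase Release 5 and not classed as depleted. There were 932 of 6264 regions in replicate 1, 1755 of 10907 in replicate 2 and 1899 of 10762 in the authors' combined list. The centromere lies at the left end of this sequence, which is 27905053 bp long and does not include the separate heterochromatin scaffold 3RHet. A head holds neurons, glia, fat body and other cells, so a region is an average over cell types, and a mark in few cells cannot be told apart from a weak mark in many.

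H3K9me2 is placed by histone methyltransferases and bound by heterochromatin protein 1, and together they mark the compact, repeat-rich chromatin that silences genes placed next to it. In flies it is best known from the sequence around the centromeres, from chromosome 4 and from transposon insertions, whereas the gene-rich arms carry it in scattered islands. In the Release 6 gene table, 3R carries 3398 protein-coding genes, among them Antp and Ubx of the Hox complexes, which set the identity of body segments. That table is on another genome release than the region lists, so the genes inside a region were not analysed here.

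Regions took up 9.68% of 3R in replicate 1, against 19.2% in replicate 2, and the combined list had 20.4%. The replicates averaged 14.4% ± 6.73 (SD, n = 2), and the share in replicate 2 was 1.98 times that in replicate 1. In length this was 2.70 Mb in replicate 1, against 5.36 Mb in replicate 2, and the combined list had 5.69 Mb. The lists carry no read counts, so sequencing depth is unknown, and its part in the gap between the replicates was not tested. Whether the libraries came from separate fly populations is not stated in the labels, and their spread may be technical.

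The typical region of 3R was short. Median length was 2139 bp in replicate 1, with quartiles of 1700 and 3397 bp, and 2241 bp in replicate 2, with quartiles of 1766 and 3418 bp. Lengths ran from 1301 to 20748 bp in replicate 1 and from 1301 to 58846 bp in replicate 2. The lower end is the same in both lists. Regions of at least 10 kb numbered 13 in replicate 1 and 38 in replicate 2. They held 6.76% of the region length of 3R in replicate 1 and 10.0% in replicate 2, so nearly all of the marked sequence lay in short regions. The uncovered gap between neighbouring regions had a median of 9.96 kb in replicate 1 and 4.97 kb in replicate 2.

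Each region has a score that the authors deposited without a unit. The steps between its most frequent values are those of a log2 scale, and the sources used here do not give the ratio behind it or its normalization. The median score of 3R regions was 0.74 in replicate 1, with a range of 0.13 to 3.25, and 0.74 in replicate 2, with a range of 0.04 to 3.85. Longer regions had higher scores, with Spearman's rho of 0.81 between length and score over the 932 regions of replicate 1 and 0.81 over the 1755 of replicate 2. These coefficients are across regions of 1 library, which are not independent, and are given as a description.

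The first comparison set 3R against the other large arms, 2L, 2R, 3L and X pooled by length. The covered share was 9.68% on 3R and 15.8% on the other arms in replicate 1, and 19.2% on 3R and 25.3% on the other arms in replicate 2. The difference, 3R minus the other arms, was -6.08 percentage points in replicate 1 and -6.14 in replicate 2. Its mean was -6.11 ± 0.040 (SD, n = 2), while the share itself differed 1.98-fold between the libraries. This spread was larger under other settings. It was 0.34 with the replicate 2 list cut by score to the covered length of replicate 1. An exact permutation test that flips the sign of each difference (two-sided, n = 2) gave p = 0.5, the smallest it allows. As 3R had been singled out for its low cover from these same lists, its low rank and this difference are a description. The same holds for the comparisons of region density, region length, score, centromeric ends, clusters and stretches without regions with the other arms below.

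**Figure D1:**
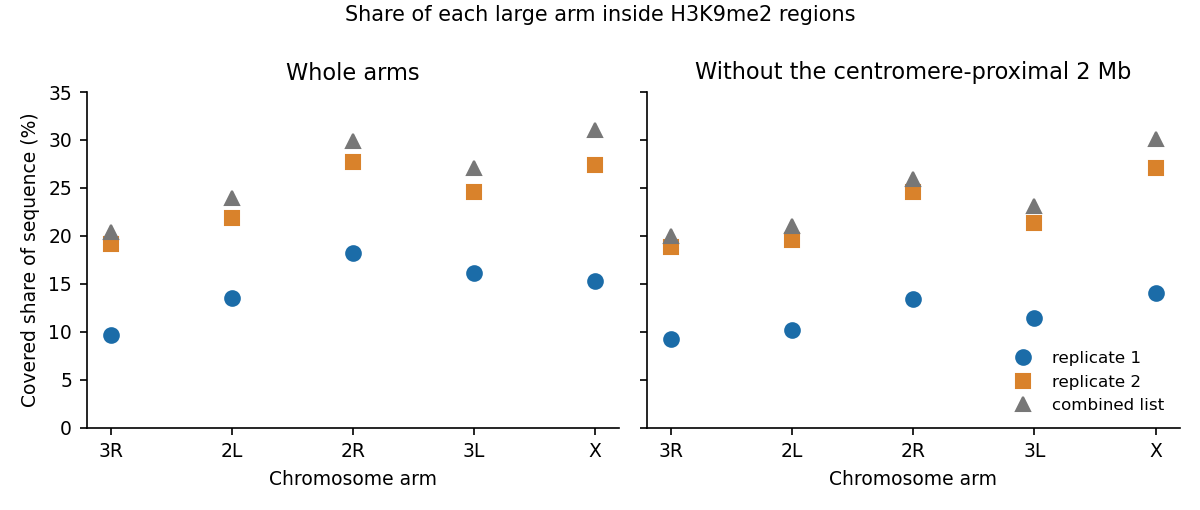
Covered share of each large arm, in percent of its sequence, for the whole arm and without its centromere-proximal 2 Mb. Each point is 1 deposited list (circles replicate 1, squares replicate 2, triangles the combined list). 3R is the lowest arm in every list in both panels, at 9.68% and 19.2% for the whole arm and 9.31% and 18.9% without the proximal part in replicates 1 and 2, and in the second panel 2L is close above it.

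Much of this difference lay next to the centromeres. Without the proximal 2 Mb of each arm, the covered share was 9.31% on 3R and 12.2% on the other arms in replicate 1, and 18.9% on 3R and 23.1% on the other arms in replicate 2. The mean difference was then -3.54 percentage points ± 0.92 (SD, n = 2), in place of -6.11 for whole arms. The nearest arm was 2L, with 10.2% in replicate 1 and 19.6% in replicate 2, which is within 1 percentage point of 3R in either replicate.

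Regions were both sparser and less often long on 3R than on the other arms. The arm had 33.4 regions per Mb in replicate 1, against 41.4 on the other arms, and 62.9 in replicate 2, against 75.5. The mean difference was -10.3 regions per Mb ± 3.19 (SD, n = 2). In replicate 1 arm 2L was at 33.5 regions per Mb, close to 3R, and without the proximal 2 Mb 3R was at 32.5 and 1 arm lay below it in that replicate. Median length differed by -146 bp in replicate 1 and -90 bp in replicate 2. In replicate 1 3R had the lowest median of the large arms, whereas in replicate 2 arm 2L had 2236 bp, below the 2241 bp of 3R. Mean length, which long regions weigh on, was 2899 bp on 3R and 3802 bp on the other arms in replicate 1, and 3053 bp on 3R and 3358 bp on the other arms in replicate 2. Long regions, of 10 kb or more, were 1.39% of the regions of 3R and 5.03% of those of the other arms in replicate 1. In replicate 2 they made up 2.17% on 3R and 3.56% on the other arms. Arm X was the nearest to 3R, with 2.06% in replicate 1 and 2.53% in replicate 2. Without the proximal 2 Mb of each arm the values were 1.19% on 3R and 2.51% on the other arms in replicate 1, and 2.13% on 3R and 2.68% on the other arms in replicate 2. X then had 1.64% in replicate 1 and 2.44% in replicate 2. The mean difference in median length was -59.5 bp without these parts and -118 bp with them. Without them 3R was again the lowest in replicate 1. In replicate 2 the medians of 2L and 3L were then 2189 and 2210.5 bp, below the 2246 bp of 3R. Median scores were 0.74 on 3R and 0.84 on the other arms in replicate 1, and 0.74 on 3R and 0.83 on the other arms in replicate 2. The score difference was -0.10 ± 0.0034 (SD, n = 2). It is a description, as longer regions scored higher and 3R had been singled out for low cover. Arm X had the highest medians, 0.92 in replicate 1 and 0.96 in replicate 2. In replicate 2 the medians of 2L and 3L were 0.75 each, close to the 0.74 of 3R, and without the proximal 2 Mb they were 0.73 and 0.72, below 3R. A selection of the better-scoring 50% of each whole list kept 23.8% of the regions of 3R and 39.4% of those of the other arms in replicate 1. In replicate 2 it kept 31.3% on 3R and 42.9% on the other arms.

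From centromere to telomere, the cover of 3R was raised on average toward both ends, though unevenly, and lowest between 22 and 24 Mb. In bins of 1 Mb, the share ran from 3.51% to 18.8% in replicate 1, with a median of 9.05%, and from 10.7% to 31.6% in replicate 2, with a median of 19.1%. Replicate 2 was higher in all 28 bins, by 5.51 to 12.8 percentage points. The order of the bins was much alike in the replicates. Across the 28 bins, which share their library, Spearman's rho between replicates was 0.95 and Pearson's r 0.94, as a description. Along the arm as a whole there was no steady trend. Spearman's rho of the share with distance from the centromeric end was -0.14 in replicate 1 and -0.04 in replicate 2, again across 28 bins.

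**Figure D2:**
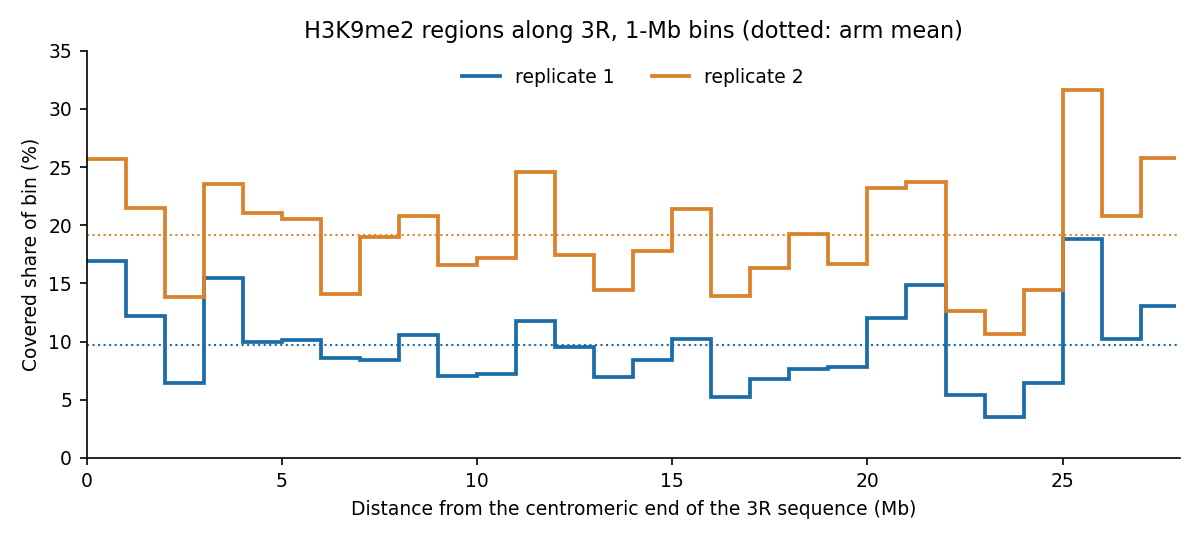
Share of each 1-Mb bin of 3R inside H3K9me2 regions, in percent, against distance from the centromeric end of the sequence in Mb. Lines are the 2 replicates and dotted lines their means over the arm, 9.68% and 19.2%. The highest bin, from 25 to 26 Mb, reaches 18.8% in replicate 1 and 31.6% in replicate 2, and the lowest, from 23 to 24 Mb, 3.51% and 10.7%.

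The centromeric end was marked more than the remainder of 3R, and its covered share was below that of the centromeric end of each other arm. The proximal 2 Mb were covered over 14.5% in replicate 1, against 9.31% in the remainder of 3R, and over 23.6% in replicate 2, against 18.9% in the remainder. The difference was 4.96 percentage points ± 0.37 (SD, n = 2), larger than its spread between replicates, with an exact sign-flip permutation p of 0.5, the smallest possible. On the other arms the proximal 2 Mb held between 28.3% (X) and 68.9% (3L) in replicate 1, and between 31.1% (X) and 61.1% (3L) in replicate 2. The heterochromatin of this chromosome arm is also represented by scaffold 3RHet, where regions covered 81.6% in replicate 1 and 70.0% in replicate 2. How far the sequence of each arm reaches into heterochromatin was not compared. The lower share is thus one of the 3R sequence, not of all sequence around its centromere.

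Within this end the first 100 kb stood out. The first region started at base 2 and ended at 11730 in replicate 1, and started at 11 and ended at 10642 in replicate 2. The first 100 kb were covered over 56.0% in replicate 1 and 62.2% in replicate 2, the second highest mean among bins of 100 kb on the arm. In the next 100 kb the share was 9.21% in replicate 1 and 32.0% in replicate 2. The cover further along the arm was uneven. From 0.3 to 0.4 Mb it was 30.4% in replicate 1 and 35.6% in replicate 2, and from 0.9 to 1.0 Mb it was 1.63% and 2.34%, below the arm mean in both. The first bin of 1 Mb had the second highest mean share of the arm, with 16.9% in replicate 1 and 25.7% in replicate 2.

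Averaged over zones of 5 Mb, the share varied little between 5 and 25 Mb. The share in replicate 1 was 12.2% from 0 to 5 Mb, 8.92% from 5 to 10 Mb, 8.79% from 10 to 15 Mb, 7.55% from 15 to 20 Mb and 8.43% from 20 to 25 Mb, and 14.0% in the last 2905 kb. Replicate 2 followed the same course, with 21.1%, 18.2%, 18.3%, 17.5% and 16.9% in these zones and 26.1% in the last one. The zones between 5 and 25 Mb thus differed by little over 1 percentage point within a replicate. Single 1-Mb bins within them varied more, from 3.51% to 14.8% in replicate 1 and from 10.7% to 24.5% in replicate 2. The bin from 3 to 4 Mb, with 15.5% in replicate 1 and 23.5% in replicate 2, was the third highest by its mean. A low bin lay from 16 to 17 Mb, with 5.23% in replicate 1 and 13.9% in replicate 2.

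The telomeric part held the sharpest contrast of the arm. The bin from 22 to 23 Mb was covered over 5.43% in replicate 1 and 12.7% in replicate 2, and the bin from 23 to 24 Mb over 3.51% and 10.7%. These were the 2 least covered bins of 3R by their mean. The neighbouring bin from 24 to 25 Mb had 6.41% in replicate 1 and 14.4% in replicate 2, above the low bin from 16 to 17 Mb. Next to this block, from 25 to 26 Mb, lay the most covered bin, at 18.8% in replicate 1 and 31.6% in replicate 2. The share of that bin was 2.94 times that of its neighbour in replicate 1 and 2.19 times in replicate 2.

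Over the telomeric 5 Mb this contrast averaged out. Their share was 10.4% in replicate 1, against 9.52% in the remainder, and 20.9% in replicate 2, against 18.8%. The difference of 1.47 percentage points ± 0.81 (SD, n = 2) was 1.83 times its spread. It depended on the window, with 4.23 points ± 1.76 for the last 2 Mb and 3.80 points ± 1.70 for the last 1 Mb. Cover near the telomeric end was uneven. The 100 kb from 27.5 Mb were covered over 58.5% in replicate 1 and 68.0% in replicate 2, the highest mean among such bins. From 27.7 to 27.8 Mb the share was 0% in replicate 1 and 1.85% in replicate 2. At the tip itself, the last region ended 39.7 kb before the end of the sequence in replicate 1, 11.1 kb before it in replicate 2 and 11.1 kb in the combined list.

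Domain clusters were looked for in the regions that both replicates listed. Intersection of the replicate lists, with gaps of up to 1 kb joined, gave 791 shared regions on 3R with a median length of 2234 bp, 2.65 Mb in all. Of these, 28 were at least 10 kb long, and they held 16.4% of the shared length. The longest, from 25077771 to 25136335 (58.6 kb), was made of 7 regions in replicate 1 with a mean score of 1.14, and of a single region in replicate 2 with a score of 1.52. The next was at 21093523 to 21114628 (21.1 kb), with mean scores of 1.02 in replicate 1 and 1.27 in replicate 2. It was followed by 27521116 to 27541763 (20.6 kb), with 1.24 in replicate 1 and 1.63 in replicate 2. The fourth, 3608286 to 3628512 (20.2 kb), had 1.19 in replicate 1 and 1.37 in replicate 2. The fifth was next to the centromeric end, at 13454 to 32410 (19.0 kb), and was the one of the 5 with the lower score in replicate 2, 1.03 against 1.24 in replicate 1. All 5 scored above the arm's median of 0.74, which follows at least in part from their choice by length.

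A cluster was defined as shared regions that follow each other with gaps of up to 10 kb, spanning at least 50 kb with at least 3 shared regions. By this rule 3R had 6 clusters, with spans of 50.6 to 108 kb, which took up 1.40% of the arm and held 9.80% of its shared length. The other large arms together had 59, or 0.65 per Mb against 0.22 per Mb on 3R, and 7.00% of their sequence lay in them. Without the proximal 2 Mb of each arm the values were 0.23 per Mb on 3R and 0.42 per Mb on the other arms, and clusters took up 1.51% of 3R and 2.83% of the other arms. Arm 3L was then close to 3R, with 6 clusters, 0.27 per Mb and 1.69% of its sequence, while X had 0.64 per Mb. The number depended strongly on the rule. It was 1 on 3R with gaps of up to 5 kb and 40 with gaps of up to 20 kb, and the combined list by itself gave 44.

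**Figure D3:**
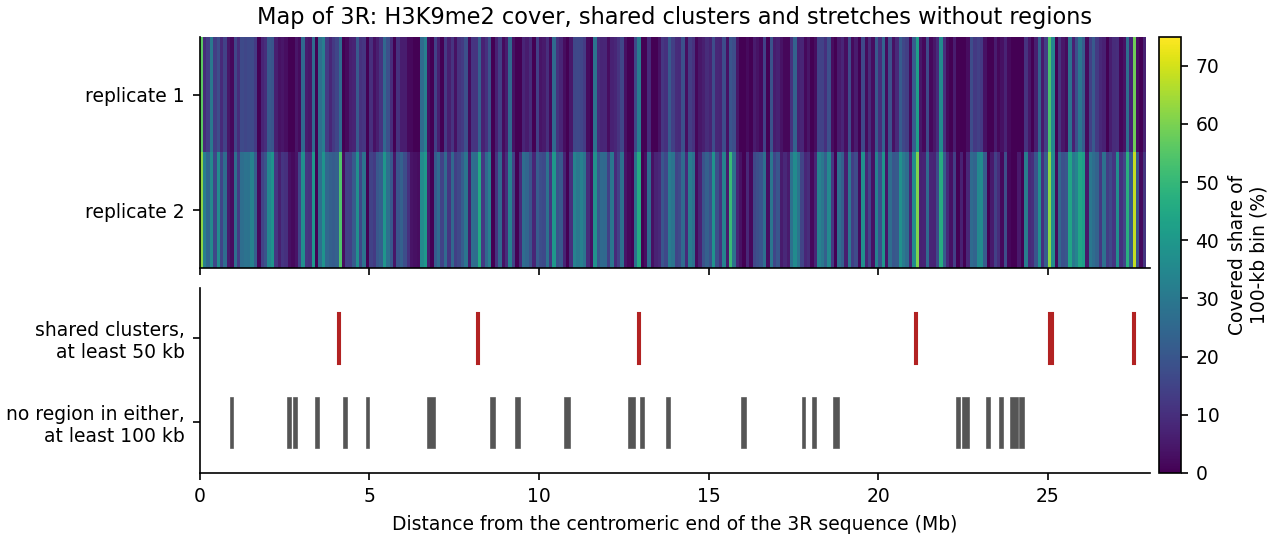
Map of 3R by distance from the centromeric end of its sequence in Mb. The upper rows give the covered share of 100-kb bins in each replicate as colour, and the lower rows mark the 6 clusters of shared regions and the 23 stretches of at least 100 kb with no region in either replicate. Bright bins stand at the first 100 kb and near 21, 25 and 27.5 Mb, and no long stretch without regions lies beyond 25 Mb.

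By shared length, the 3 largest clusters lay in the telomeric 7 Mb. By span, the cluster near 4.07 Mb (65.2 kb) ranked second. The largest by either measure, from 25028204 to 25136335, spanned 108 kb with 5 shared regions and 92.3 kb of shared length. It was covered over 81.6% in replicate 1 by 14 regions, and over 87.1% in replicate 2 by 6 regions. Its mean score was 1.10 in replicate 1 and 1.42 in replicate 2. As the cluster was chosen for its shared length, and longer regions scored higher, these scores are not set against the median of the arm. This cluster contains the longest shared region of 3R, at its telomeric side.

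**Figure D4:**
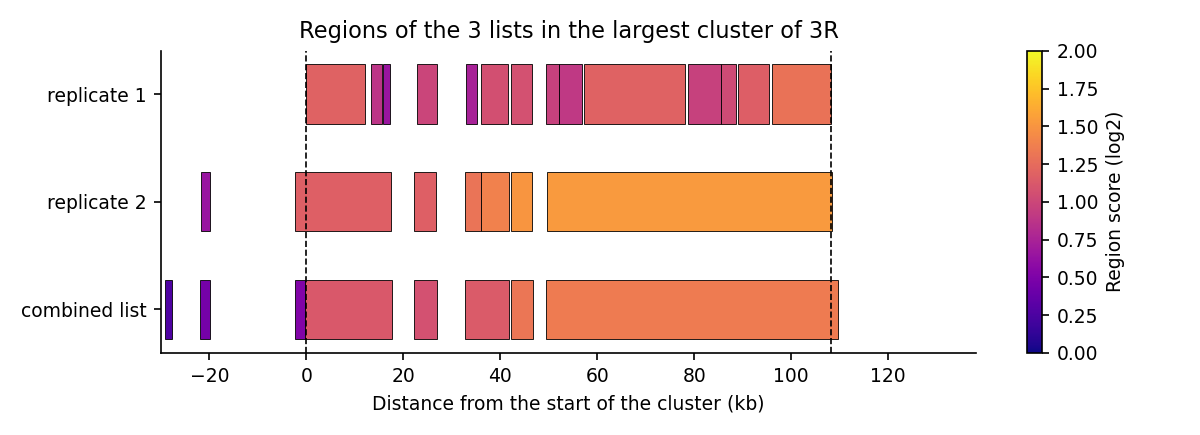
Regions of the 3 lists in the largest cluster of 3R, by distance from its start in kb, with the region score on its log2 scale as colour and dashed lines at the cluster's ends. Replicate 1 lists 14 regions and replicate 2 lists 6 over the same 108 kb, and the single region of replicate 2 at the telomeric side faces 7 regions of replicate 1.

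The second cluster by shared length, from 27504618 to 27567453 (62.8 kb), was covered over 74.5% in replicate 1 and 83.6% in replicate 2, with scores of 1.05 and 1.45. It lay 0.34 Mb from the telomeric end of the sequence. The third, from 21093523 to 21146161 (52.6 kb), was covered over 77.9% in replicate 1 and 87.6% in replicate 2, with scores of 0.88 and 1.08. In these 3 clusters shared regions took up 77.1% to 85.3% of the span, which follows in part from their rank by shared length.

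The other 3 clusters were looser rows of short regions. The one from 4071619 to 4136840 (65.2 kb) held 8 shared regions over 43.9% of its span, and the one from 12917626 to 12968211 (50.6 kb) held 6 over 54.4%. The one from 8181986 to 8233809 (51.8 kb) held 9 over 42.3%, and its scores of 0.69 in replicate 1 and 0.75 in replicate 2 were the lowest of the 6 in both lists. Cover of these 3 differed more between the libraries than that of the dense ones. It ran from 40.9% to 54.0% in replicate 1 and from 65.8% to 75.3% in replicate 2.

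Long stretches without the mark took up more of 3R than of the other arms. Stretches of at least 100 kb with no region made up 37.9% of 3R and 25.8% of the other arms in replicate 1, and 12.3% of 3R and 5.40% of the other arms in replicate 2. The mean difference was 9.51 percentage points ± 3.68 (SD, n = 2), and 3R ranked first of the 5 arms in each replicate. The exact sign-flip permutation p was 0.5, the smallest possible. It was as large without the proximal 2 Mb of each arm, at 9.54 points ± 3.68. The nearest arm was 2L with 33.5% in replicate 1, and 3L with 8.23% in replicate 2. In the combined list the shares were 11.9% on 3R and 3.98% on the other arms. 3R had been singled out for its low cover from these same lists, and stretches without regions are the other side of cover. The difference and the rank are therefore a description.

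**Figure D5:**
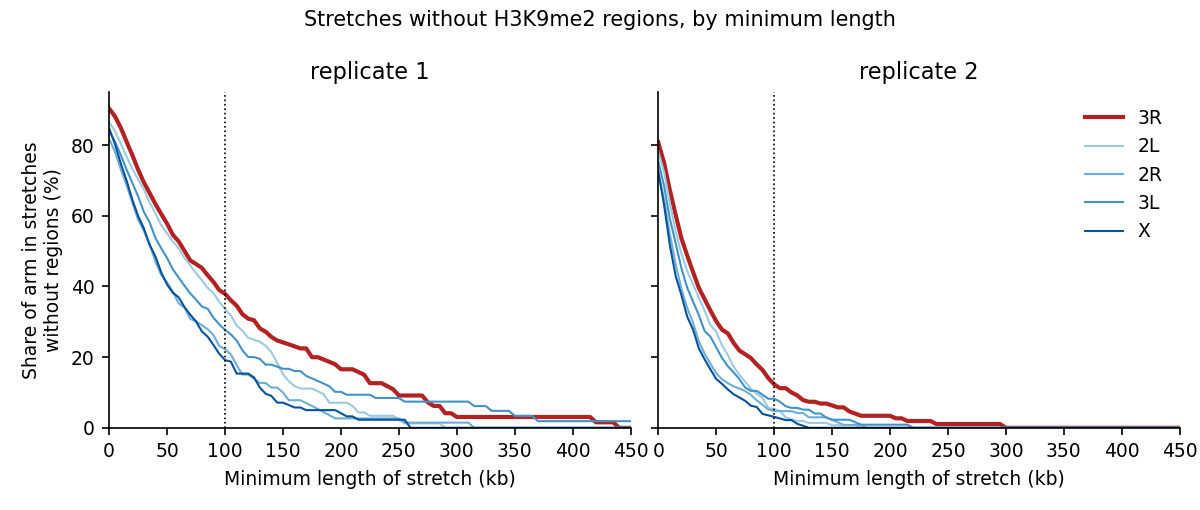
Share of each large arm, in percent, in stretches without H3K9me2 regions at least as long as the value on the x axis in kb, for each replicate. The dotted line marks 100 kb, where 3R has 37.9% in replicate 1 and 12.3% in replicate 2, above the other 4 arms in both.

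Replicate 1 had 61 such stretches on 3R, replicate 2 had 23 and the combined list 22. The longest of replicate 1 ran from 23872070 to 24310213, 438 kb, and the next from 22277683 to 22694882, 417 kb. Replicate 2 had its longest at 23816626 to 24116426, 300 kb, which overlaps the longest of replicate 1. Both therefore lay in the poorly covered block between 22 and 25 Mb. Of the length that replicate 1 left in stretches of at least 100 kb, 5.40% was covered by regions in replicate 2. In the other direction, 0.15% of the stretch length of replicate 2 was covered in replicate 1, or 5.13 kb, so what replicate 2 left unmarked was almost without regions in replicate 1 as well.

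In the union of the replicate lists, 23 stretches of at least 100 kb remained free of regions, 3.37 Mb or 12.1% of 3R, with a median of 130 kb. On the other large arms, 36 such stretches took up 5.10%. The combined list, made for the same pair of libraries, had regions over 0.27% of the 3R stretches, and 8 of the 23 had none. The 4 longest exceeded 200 kb. They ran from 23872070 to 24116426 (244 kb), from 6714527 to 6952148 (238 kb), from 12615735 to 12829683 (214 kb) and from 22462114 to 22663030 (201 kb). The first of these had no region in the combined list either, and the second had 3, over 1.20% of its length. The third lay 87.9 kb from a cluster, the one at 12917626, so that one of the longest stretches without regions and a cluster followed each other.

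The next 6 stretches by length were shorter than 172 kb and scattered along the arm. They were at 15943479 to 16115133 (172 kb), 10746685 to 10912771 (166 kb), 9292764 to 9457378 (165 kb), 24149226 to 24310213 (161 kb), 18679099 to 18833077 (154 kb) and 8569795 to 8717524 (148 kb). By zone, 6 of the 23 stretches started between 0 and 5 Mb and 6 between 20 and 25 Mb. The zones from 5 to 10, 10 to 15 and 15 to 20 Mb had 3, 4 and 4. The zone from 20 to 25 Mb had the highest share of its length in them, 19.2%, and the last 2905 kb of the arm had none.

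Nearly all regions of replicate 1 on 3R had a counterpart in replicate 2, and fewer than 50% of those of replicate 2 had one in replicate 1. Of the 932 regions of replicate 1, 97.5% were touched by at least 1 bp of replicate 2, the highest share among the 5 arms, and of the 1755 regions of replicate 2, 47.9% were touched by replicate 1, the lowest. On the other arms these shares were 93.7% to 96.3% and 49.4% to 55.3%. The lists shared 2.58 Mb of 3R, or 95.6% of what replicate 1 covered and 48.2% of what replicate 2 covered. The Jaccard index (shared length as a share of the union) was 47.2% on 3R and between 47.4% (X) and 56.8% (2R) on the other arms. Replicate 1 was thus nearly contained in replicate 2 on this arm.

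The regions that replicate 2 alone listed on 3R were shorter and scored lower than the others. These 915 regions had medians of 1852 bp in length and 0.61 in score, against 3247 bp and 0.96 for the 840 that replicate 1 touched. The same held on each other arm. There the regions of replicate 2 alone had medians of 1808 to 1887 bp and scores of 0.60 to 0.83. The touched ones there had 3291 to 3565.5 bp and 1.00 to 1.15. The share touched by replicate 1 was 92.3% in the highest score quartile of replicate 2, then 54.6%, 26.4% and 18.2% down to the lowest. Median length was 4133 bp in the highest of these quartiles and 1647 bp in the lowest. A longer region more easily meets the rule of 1 bp, so these contrasts follow at least in part from the rule. A link of score with touching apart from length was not tested. In replicate 1 between 95.7% and 99.1% were touched in each quartile, so close to all that an order by score could not show. The 23 untouched regions of replicate 1 had a median score of 0.72, and the touched ones 0.74. Across the 909 touched regions of replicate 1, the scores of the replicates had a Spearman's rho of 0.71 and Pearson's r of 0.71, as a description across regions.

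The combined list held 98.9% of the length that replicate 1 had on 3R and 95.6% of that of replicate 2. Of its 1899 regions, 217 were touched by neither replicate. Their medians were 1185 bp in length and 0.43 in score, where the remaining regions scored 0.54. Untouched regions also occurred on the other arms, 192 of 1614 on 2L and 168 of 1695 on 2R. There were 237 of 1876 on 3L and 330 of 2194 on X. Their medians were 1205 to 1223 bp in length and 0.42 to 0.57 in score, so such regions were not particular to 3R. Rows of 3R classed as depleted, which are not among the members, occurred in the combined list alone. They were at 21683430 to 21685126, with a score of -0.105, and at 23870244 to 23872060, with a score of -0.000736. Regions of replicate 1 covered 81.6% of the first and 100% of the second, and regions of replicate 2 covered 0% of both. The second of these ends 10 bases from the start of the longest stretch without regions in either replicate. That start is set by the end of a region of replicate 1, so the nearness rests on this 1 region.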

How the data were processed

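The authors deposited 3 lists of regions on FlyBase Release 5, per the file headers, 1 for each ChIP library and 1 combined list, with a score for each region. Per the submitters' processing notes, the reads were aligned with Bowtie 0.12.7. The region caller, its threshold, the scaling of the score and how the combined list was made are not stated in the sources used here. Read-level values of the ChIP and input libraries were not used here. Among the 190 pairs formed by the 20 most frequent scores of a list, 124, 103 and 91 pairs (replicate 1, replicate 2, combined list) differed by log2 of a ratio of whole numbers up to 30, within 1e-08, against 0 by its natural logarithm, so scores are read as log2 values.

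Coordinates are 1-based. No region of 3R ran past the sequence ends. Covered shares, gaps and overlaps were computed in Python 3.11.15 with numpy 2.4.6 and scipy 1.17.1. The interval code was tested on simulated data, 200 pairs of lists with known answers, which it recovered. The proximal part was the first 2 Mb of 3R and 2R and the last 2 Mb of 2L, 3L and X. A region belonged to the bin of its midpoint. The score of a named stretch of sequence is the mean over regions overlapping it, weighted by overlapping length. Differences were taken within a replicate and tested by flipping their signs over the replicates (exact permutation, two-sided), which cannot give p below 0.5. Named in the text are the clusters with most shared length (up to 10), the 5 longest shared regions, the 10 longest stretches free of regions in both lists, the 3 most and 3 least covered 1-Mb bins and the depleted rows. Other sites were named after their values were seen. The arm, the windows and these rules were chosen with earlier results of these data known.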

Additional observations from a re-analysis of the deposited data

How the results depend on the processing

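No difference changed sign under the alternatives that were run. No paired analysis was possible because, of the ChIP and input groups that share replicate numbers, the input group has no region list here; this concerns pairing of ChIP with input, and the differences between parts of the genome were taken within each ChIP replicate. The mean share of 3R was 6.86% with the better-scoring 50% of regions, in place of 14.4%. The difference to the other arms, -6.11 percentage points, was -7.54 in the combined list, -6.43 with the better-scoring 50%, -6.32 at equal covered length, -7.46 with gaps up to 5 kb joined, -3.54 without the proximal 2 Mb and -3.04 without the proximal 5 Mb. The proximal excess, 4.96 points, was 6.00 in the combined list, 2.76 with the better-scoring 50%, 3.67 at equal covered length, 7.09 with 1 Mb and 2.68 with 5 Mb. The telomeric excess, 1.47 points, was 3.80 with 1 Mb and 4.23 with 2 Mb. The excess in long stretches without regions, 9.51 points, was 21.5 with the better-scoring 50% and 13.2 at equal covered length. The 6 clusters became 1 with gaps of 5 kb, 40 with gaps of 20 kb, 44 in the combined list, 1 with the better-scoring 50% and 3 at equal covered length. The Jaccard index, 47.2%, was 37.4% with the better-scoring 50%, 56.2% at equal covered length and 45.7% with gaps joined. The selections by score keep fewer regions of 3R than of the other arms, and joining adds length by construction. For the other moves the cause was not tested.

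With 1 replicate left out at a time, the values ran from 9.68% to 19.2% for the share of 3R, -6.14 to -6.08 points for the difference to the other arms, -12.6 to -8.05 regions per Mb, 4.69 to 5.22 points for the proximal excess, 0.90 to 2.05 for the telomeric excess and 6.90 to 12.1 for long stretches. A single list gave 6 clusters without replicate 2 and 37 without replicate 1. The cluster count from 1 list, and regions per Mb and long stretches without the proximal 2 Mb, were chosen after the data were seen. Depth is unknown, so a stretch without regions is one where none was called at the depth of these libraries.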

Other observations

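Of the 5 highest-scoring regions of 3R in replicate 2, 4 had no counterpart in replicate 1, and the 5 in the combined list had none there. In replicate 1 the highest was 3.25, for the 1493 bp from 15570044 to 15571536, of which 99.6% was also covered in replicate 2. A broader high-scoring site in both replicates lay at 3520976 to 3529530 in replicate 1, 8555 bp with a score of 2.28, and at 3520966 to 3530211 in replicate 2, 9246 bp with a score of 2.50. In replicate 2 the 4 highest, with scores of 3.85, 3.53, 3.26 and 2.53 and lengths of 1360 to 2006 bp, were covered over 0% in replicate 1. Exactly these scores were held by 9, 6, 2 and 9 regions of the whole replicate 2 list, so they do not single out these sites. In the combined list 3 regions of 3R had exactly the same highest score, 3.96, and 2 of these, at 6786308 to 6788126 and 26506022 to 26507030, lay where neither replicate listed a region. The first of them lies in the second longest stretch of 3R without regions in the replicate lists.

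Exact repeats of a score occurred among the regions of 3R. In replicate 1, 33.7% of its regions had a score that at least 1 other region of the same list also had. The share was 37.8% in replicate 2 and 26.6% in the combined list. It was not computed for the other arms or for whole lists, so it cannot be called particular to 3R. The sites and shares of this section were chosen after their values were seen.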
